A study of Mus musculus with 6 samples.

Results

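The wild type arm of a mouse Srp68 study was examined as a baseline of early meiotic prophase: 3 libraries of leptotene and zygotene spermatocytes out of 6 libraries in the series. The cells came from testes at postnatal day 12, were separated from other cells by fluorescence-activated sorting after collagenase and trypsin digestion, and were labelled wild type with no strain given. Poly(A) RNA was copied to full-length cDNA and amplified by the Smart-seq2 method, which works from few cells. The libraries were taken by their labels, the 3 knockout libraries enter no value here, and the labels do not say whether the 3 wild type libraries came from separate animals. The spread between them may therefore be technical.

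In leptotene, the chromosomes of a spermatocyte condense along protein axes and SPO11 cuts the DNA. In zygotene, the meiotic recombinase DMC1 helps pair the broken ends with the homologous chromosome, and the synaptonemal complex begins to zip the paired axes together. Spermatocytes of this stage are known for germ cell copies of many housekeeping proteins and for a postponed programme of sperm genes, which are transcribed later.

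The libraries held 14254224, 15381473 and 14301070 counts for replicates 1, 2 and 3. Genes with at least 1 count numbered 18113, 18572 and 18261, and 22468 of 49584 listed genes were counted in at least 1 library. At this depth 3 counts corresponded to between 0.195 and 0.210 CPM (a gene's count scaled to its library's total), so lower values lie within counting error. A level of 1 CPM or more in every library was reached by 11104 genes, of which 9853 were protein-coding. CPM is used below to follow 1 gene across libraries. TPM, the same after division by exon length, is used to compare genes with each other.

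The libraries were read for 5 markers given for these cells. Sycp3, which encodes an axial element protein of the synaptonemal complex, was at 6373, 5488 and 6670 CPM in replicates 1, 2 and 3. Syce2, a central element gene, was at 1485, 1330 and 1510 CPM, and Dmc1, the meiotic recombinase, at 479, 456 and 463 CPM. These 3 genes were abundant in every library. Tex15, needed for the loading of recombinases, was at 793, 723 and 884 CPM. Hspa5, the main chaperone of the endoplasmic reticulum (ER) and not a meiosis gene, was at 2178, 1991 and 1846 CPM. All 5 markers were therefore detected far above the counting floor in each library. No other stage was compared, so these levels do not separate the labelled stage from its neighbours.

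The 3 most abundant transcripts of the meiosis lists came from genes whose start regions share a short motif, and these regions are printed because these genes have the highest CPM of the meiosis lists. Each is the 250 bases before the transcript start, from RefSeq on GRCm38.p6, read in the direction of the gene. Capitals mark matches to CACGTG (an E-box), TTCCCGC (an E2F motif) or GGGCGG (a GC box) on either strand, and TATAAA and CCAAT were searched as well. The window of Sycp3 lies at chr10:88459337-88459586 on the plus strand, Sycp1 at chr3:102936101-102936350 on the minus strand and Hormad1 at chr3:95559427-95559676 on the plus strand.
Sycp3: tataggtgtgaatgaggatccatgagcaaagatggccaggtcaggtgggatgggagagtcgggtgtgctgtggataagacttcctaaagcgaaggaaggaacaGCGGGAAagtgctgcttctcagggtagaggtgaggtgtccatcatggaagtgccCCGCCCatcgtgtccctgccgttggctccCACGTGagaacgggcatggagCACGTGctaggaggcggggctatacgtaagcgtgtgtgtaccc
Sycp1: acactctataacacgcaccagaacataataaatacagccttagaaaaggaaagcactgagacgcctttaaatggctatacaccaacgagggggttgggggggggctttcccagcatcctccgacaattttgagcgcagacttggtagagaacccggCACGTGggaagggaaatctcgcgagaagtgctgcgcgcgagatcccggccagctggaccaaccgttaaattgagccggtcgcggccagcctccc
Hormad1: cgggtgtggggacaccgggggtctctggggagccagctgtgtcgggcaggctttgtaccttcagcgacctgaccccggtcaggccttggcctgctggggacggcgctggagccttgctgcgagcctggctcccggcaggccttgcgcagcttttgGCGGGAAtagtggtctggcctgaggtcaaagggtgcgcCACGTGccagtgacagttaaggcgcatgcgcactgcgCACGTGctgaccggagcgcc

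CACGTG occurs 64 and 43 bases before the start of Sycp3, 94 bases before that of Sycp1, and 57 and 20 bases before that of Hormad1. The same letters were found in 6.05% of all 27025 windows of this length, in 9.92% of 1733 windows of protein-coding genes with a mean of at least 100 CPM and in 12.0% (10 of 83) of the windows of listed meiosis genes. The E2F motif, read on the minus strand in Sycp3 and Hormad1, was found in 3.84% of all windows, in 9.46% of those of protein-coding genes of at least 100 CPM and in 22.9% (19 of 83) of those of listed meiosis genes. The GC box, present in Sycp3, was found in 32.9, 62.2 and 51.8% of the same groups. Of 104 matched genes in the meiosis lists, 83 had a window. A match describes letters in a window and does not show that a factor bound there.

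The wild type transcriptome was led by mitochondrial genes, a histone variant, a chaperone and meiosis genes. On the CPM scale the ranking opened with mt-Cytb (9128 ± 1360 CPM, SD, n = 3), the mitochondrial rRNA gene mt-Rnr2 (9066 ± 954 CPM) and mt-Co1 (8630 ± 789 CPM). H3f3b, a gene for the replication-independent histone H3.3, followed at 7521, 6875 and 6692 CPM. Hsp90aa1, the inducible-type cytosolic HSP90 gene, was at 6305, 6488 and 7069 CPM. Sycp3 stood at rank 6 by mean CPM and at rank 5 or 6 in each library. Meiosis and germ cell genes therefore sat among the housekeeping leaders: Sycp1, the transverse filament gene of the synaptonemal complex, at rank 9, Dazl, an RNA-binding regulator of germ cell translation, at rank 12, Tex101, a surface protein of germ cells, at rank 14, and Hormad1, an axis protein that marks unsynapsed chromosomes, at rank 17.

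The leading meiosis and germ cell genes had a coefficient of variation (CV, SD over mean of CPM) from 1.89% (Dazl) to 14.1% (Tex101), beside a median of 7.45% for genes of at least 1000 CPM. Sycp1 was at 4917, 4994 and 5772 CPM and Dazl at 4061, 4100 and 3953 CPM. Tex101 was at 3887, 3353 and 4452 CPM and Hormad1 at 3304, 2945 and 3755 CPM. Replicate 3 was highest and replicate 2 lowest for Sycp3, Tex101 and Hormad1, while Dazl varied by less than its neighbours. Sub1, a transcriptional coactivator, was at 5475, 4896 and 5447 CPM and Hmgb2, a chromatin protein, at 3077, 3282 and 3583 CPM. CT010467.1, an rRNA gene, was at 2970, 4500 and 3044 CPM, so replicate 2 stood above the others.

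**Figure D1:**
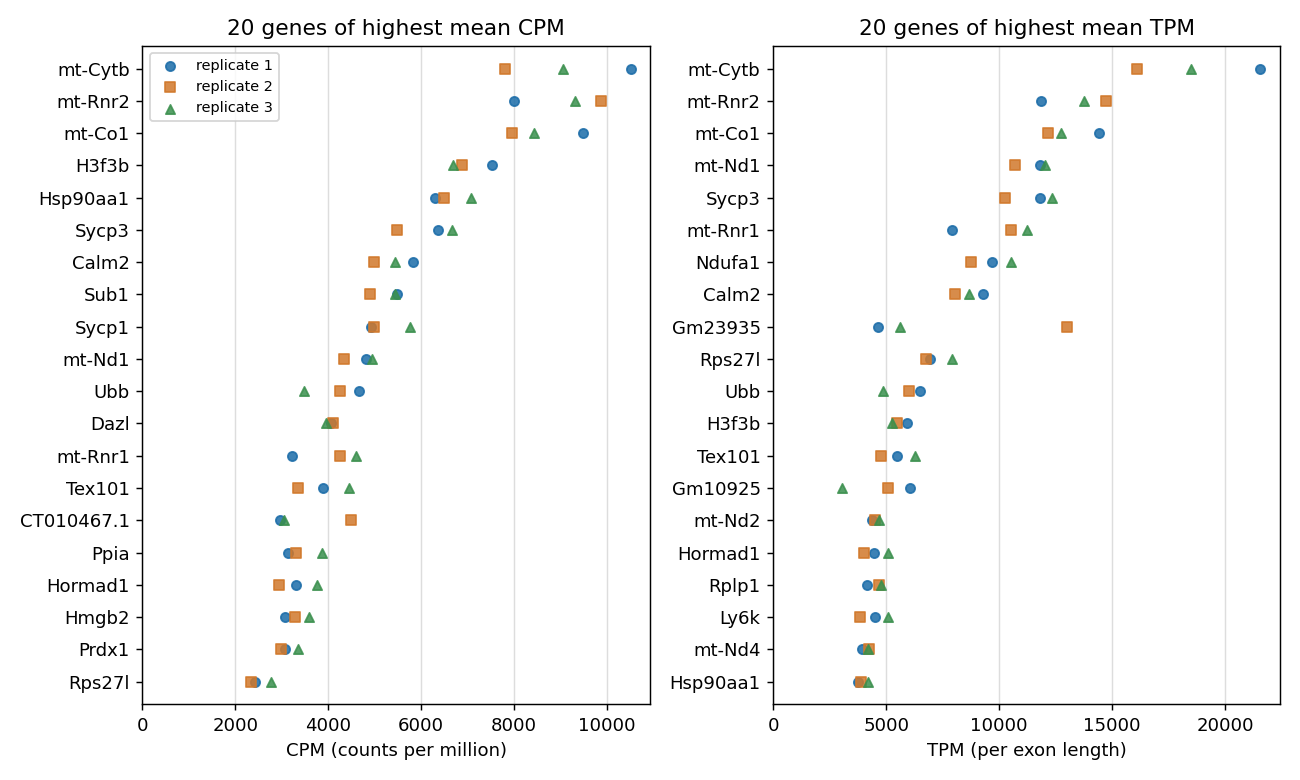
The 20 genes of highest mean CPM (left, CPM on a linear axis) and of highest mean TPM (right, TPM on a linear axis), with 1 symbol for each wild type library. Sycp3, at 6177 CPM and 11467 TPM on average, is the leading nuclear meiosis gene on both scales, and Gm23935 and CT010467.1 are drawn apart in replicate 2.

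Per exon length, short transcripts moved up the ranking. Sycp3 rose to 11467 ± 1073 TPM (SD, n = 3), rank 5 by TPM and the highest value of any nuclear gene. Ndufa1, an X-linked gene for a small subunit of respiratory complex I, came next among nuclear genes at 9666 ± 884 TPM, although it was at rank 30 by CPM. Calm2, a calmodulin gene, was at 8668 ± 628 TPM and Rps27l, a relative of a ribosomal protein gene, at 7203 ± 620 TPM. Ly6k, whose product partners TEX101 on germ cells, was at 4475 ± 628 TPM and the X-linked germ cell gene Fmr1nb at 3462 ± 472 TPM. Of the 30 leading genes by CPM, 20 were also among the 30 leading by TPM. Gm23935 owed its 7756 TPM to a very short annotated exon, with 113, 313 and 137 CPM. Hsp90aa1 shares 62.9% and Hormad1 42.5% of their sequence with other genes, mainly pseudogenes, so their counts depend on how shared reads were assigned.

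Counts were spread over many genes. The 636, 668 and 605 most abundant genes held 50% of the counts in replicates 1, 2 and 3. The 100 most abundant held 21.1, 20.6 and 21.7%. In TPM the same 50% was reached by 277 genes, and the 100 leading genes held 33.2%. By level, 94 genes with a mean of at least 1000 CPM held 20.5 ± 0.521% of counts (SD, n = 3), and 2078 genes between 100 and 1000 CPM held 57.3 ± 0.327%. The 5235 genes between 10 and 100 CPM held 19.9 ± 0.721%, and 9644 genes below 1 CPM together held 0.265 ± 0.00989%. Protein-coding genes held 96.2 ± 0.133% of counts.

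Sorted into 30 gene lists, the counts were led by the machinery of translation and respiration. Cytosolic ribosomal protein genes and their close relatives (85 genes) took 5.41, 5.72 and 5.92% of counts in replicates 1, 2 and 3. The mitochondrial genome took 4.38, 4.14 and 4.37%, and 83 nuclear genes for the respiratory chain took 3.99, 3.88 and 4.14%. This order held in each library. Of the mitochondrial share, 13 protein genes made up 2.99 ± 0.262% of counts and the rRNA genes 1.31 ± 0.161%, while 17 of 22 tRNA genes had no count. Of the ribosomal genes 84 of 85, and of the respiratory genes 81 of 83, reached 1 CPM in every library. The same level was reached by 9853 of 15606 protein-coding genes with a count.

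The 9 synaptonemal complex genes took 1.68, 1.57 and 1.86% of counts, a share close to that of families many times larger. Sycp3 alone was 36.2% of this share. With genes overlapping the opposite strand left out, Sycp3 among them, the list moved from rank 6 to rank 9. The 67 translation factors took 1.75 ± 0.0392% (SD, n = 3), the 52 splicing factors 1.68 ± 0.048% and the 50 proteasome genes 1.56 ± 0.0254%, and their ranges over libraries overlapped that of the synaptonemal complex. The 30 cytosolic and mitochondrial chaperones took 1.77 ± 0.00357%, of which Hsp90aa1 alone was 37.3%. On the length-scaled measure the synaptonemal complex summed to 22665 ± 1744 TPM, which was the fourth highest sum after ribosomal proteins (90215 ± 4087 TPM), the mitochondrial genome (84902 ± 2818 TPM) and the nuclear respiratory chain (75093 ± 3022 TPM). The first 2 of these overlapped, and in replicate 1 the mitochondrial genome, at 87150 TPM, was above ribosomal proteins, at 85841 TPM. The lowest library of the synaptonemal complex list, at 20937 TPM, lay above the highest library of the proteasome list, at 16888 TPM. Of the mean sum of 22665 TPM, Sycp3 alone gave 11467 TPM, and 52.2% of its exon length overlaps Chpt1 on the opposite strand. Without Sycp3 the list would lie below the proteasome list in TPM, so its place on this measure depended on that gene.

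**Figure D2:**
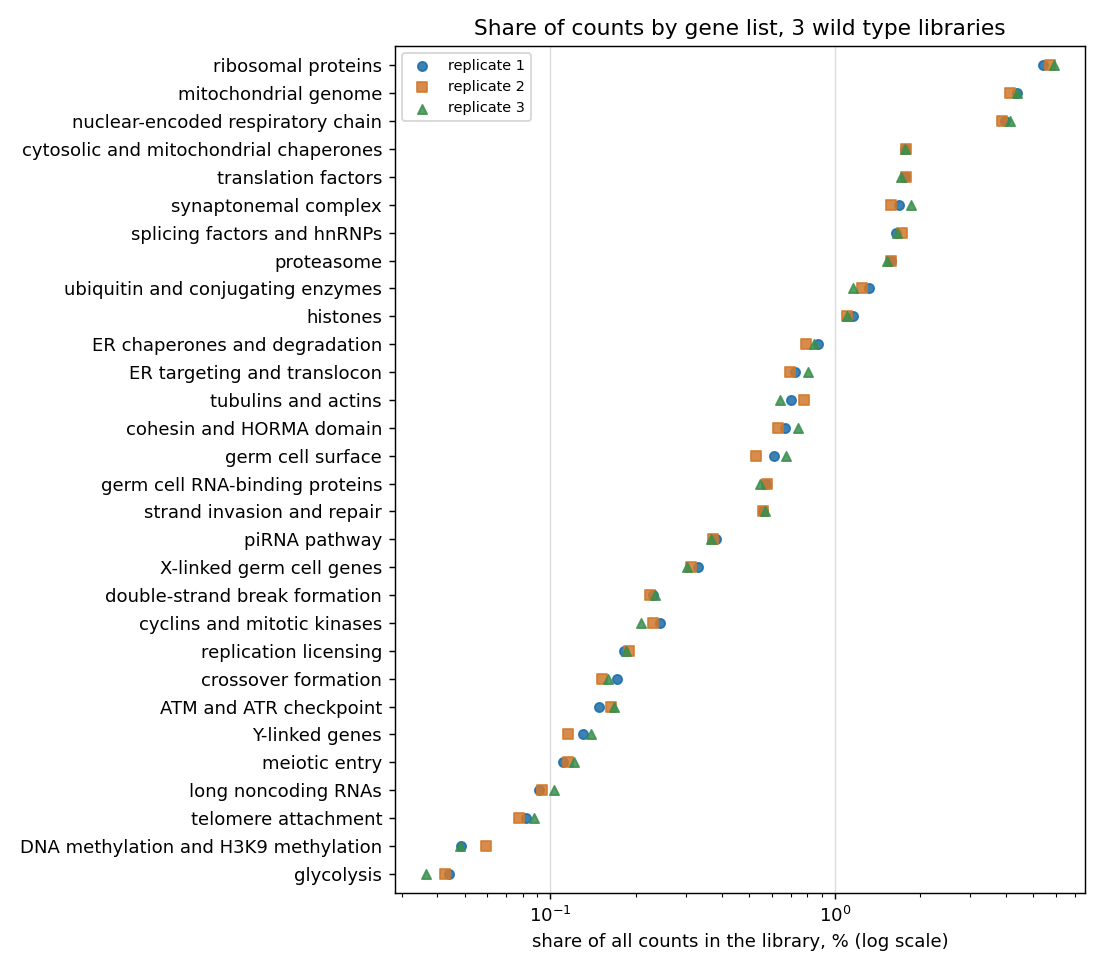
Share of all counts (log axis, per cent) taken by 30 gene lists, with 1 symbol for each wild type library. Ribosomal protein genes lead at 5.68% on average, the synaptonemal complex lies level with translation and splicing factors at 1.70%, and glycolysis is lowest at 0.0409%.

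In the synaptonemal complex list, 8 of 9 genes lay above 92.3 TPM, the level that 10% of protein-coding genes with a count reached. Lateral element genes Sycp3 and Sycp2 were at 11467 ± 1073 and 601 ± 72.6 TPM (SD, n = 3). The transverse filament gene Sycp1 was at 3450 ± 299 TPM. Central element genes followed as Tex12 at 2497 ± 237 TPM, Syce3 at 1896 ± 156 TPM, Syce2 at 1719 ± 106 TPM and Syce1 at 775 ± 47 TPM. The levels of Tex12, Syce3 and Syce2 were thus within a narrow band, and Syce3 and Syce2 overlapped over libraries. Sycp2l, known from oocytes, was at 1.01 ± 0.64 TPM. The exons of Sycp3 overlap Chpt1 on the opposite strand over 52.2% of their length, and Chpt1 itself had 56.6 CPM.

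Axis and cohesin genes were dominated by Hormad1 and Smc1b. Hormad1 was at 4525 ± 524 TPM (SD, n = 3) and made up 49.0% of the counts of its list, and Hormad2 was at 167 ± 5.98 TPM. Smc1b, the meiotic form of a core cohesin ATPase, was at 1648, 1577 and 1834 CPM, whereas its ubiquitous relative Smc1a was at 48.3, 47.9 and 42.7 CPM. The TPM ratio of Smc1b to Smc1a was 48.6, 46.9 and 61.2 in replicates 1, 2 and 3. Stag3, the meiotic SA subunit, was at 73.1 ± 8.21 TPM, against 29.7 ± 2.69 TPM for Stag1 and 12.8 ± 1.88 TPM for Stag2, its ubiquitous relatives. The kleisin subunits did not follow that pattern: the meiotic gene Rec8 was at 2.32, 3.19 and 2.59 CPM, and its ubiquitous relative Rad21 at 69.3, 68.9 and 76.1 CPM. Rad21l, a further meiotic kleisin, was at 30.6 ± 2.54 TPM, below Rad21 at 39.6 ± 2.06 TPM in every library, and Rec8 was at 2.16 ± 0.369 TPM. Of Rec8's sequence 0.696% was shared with another annotated transcript, at a word length of 31 bases.

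All 10 genes listed for double-strand break formation were at 1 CPM or more in every library, with a median of 67.7 TPM. That level was reached by 9853 of 15606 protein-coding genes with a count. Spo11, the gene of the cutting enzyme, was at 378, 349 and 341 CPM, and Ankrd31, a partner of the break machinery, at 363, 372 and 410 CPM. Prdm9, which encodes the methyltransferase that places break hotspots, was at 119, 105 and 124 CPM, and Zcwpw1, a reader of its marks, at 252, 279 and 279 CPM. Hells, a chromatin remodeller that acts with PRDM9, led the list at 313 ± 10.1 TPM (SD, n = 3), against 213 ± 11.4 TPM for Spo11 and 63.2 ± 4.91 TPM for Prdm9. Mei4 and Mei1 were the lowest members, at 7.56 ± 3.08 and 9.19 ± 1.35 TPM.

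Strand invasion and repair genes had a median of 60.7 TPM and were led by Meiob. Meiob, a single-strand DNA binding partner of RPA, was at 758, 731 and 742 CPM, and its 969 ± 14.3 TPM (SD, n = 3) was the highest of the list. Mnd1 and Psmc3ip, which form the HOP2-MND1 accessory complex, were at 483 ± 35.3 and 314 ± 13.7 TPM. Sfr1 and Swi5, whose products act together on the recombinases, were at 427 ± 29.5 and 342 ± 16.1 TPM. Dmc1 was at 449 ± 10.1 TPM. Brca2, which loads recombinases, was at 33.8 ± 2.61 TPM and Brca1 at 9.95 ± 0.626 TPM. All 26 matched members were at 1 CPM or more in every library, beside 9853 of 15606 protein-coding genes with a count. Spata22 was not analysed here.

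Crossover and telomere genes had lower medians than the break and strand invasion lists. The median member had 25.0 TPM in the crossover list and 49.2 TPM in the telomere list, beside 3.66 TPM over 15606 protein-coding genes with a count. 1700102P08Rik (Spo16), a subunit of the ZZS complex, led the crossover genes at 491 ± 15.3 TPM (SD, n = 3), followed by X-linked Tex11 at 242 ± 30.2 TPM and the helicase gene Hfm1 at 151 ± 13.2 TPM. Msh4 and Msh5, whose products stabilise crossover intermediates, were at 24.2 ± 4.23 and 22.8 ± 3.55 TPM and their ranges overlapped. Mlh3, which acts on crossovers later, was at 6.79 ± 0.825 TPM. At the telomeres, Spdya, a CDK2 activator, was at 258 ± 36.3 TPM. Terb2, Majin and Terb1, which tie telomeres to the nuclear envelope, were at 195 ± 23.6, 89.6 ± 21.7 and 70.9 ± 6.76 TPM.

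Checkpoint kinases and meiotic entry genes complete the meiosis lists. Atr, the kinase that marks unsynapsed chromatin, was at 473, 502 and 534 CPM and Atm, the kinase that answers breaks, at 70.9, 81.9 and 91.3 CPM. In TPM these were 49.9 ± 2.95 and 18.5 ± 2.3 (SD, n = 3), and Atr was at 112 TPM when its longest transcript was the length. H2afx, whose product is phosphorylated by both, was at 265 ± 49.6 TPM. Stra8, the gatekeeper of meiotic entry, was at 94.1, 111 and 122 CPM and its partner Gm4969 (Meiosin) at 40.9, 40.2 and 41.3 CPM. Among the RNA regulators of entry, Rbm46 at 319 ± 21.5 TPM and Meioc at 232 ± 12 TPM lay above Stra8 at 142 ± 18.4 TPM, and Ythdc2 at 55.4 ± 4.3 TPM lay below it. Together the 104 meiosis genes took 3.65, 3.49 and 3.94% of counts.

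**Figure D3:**
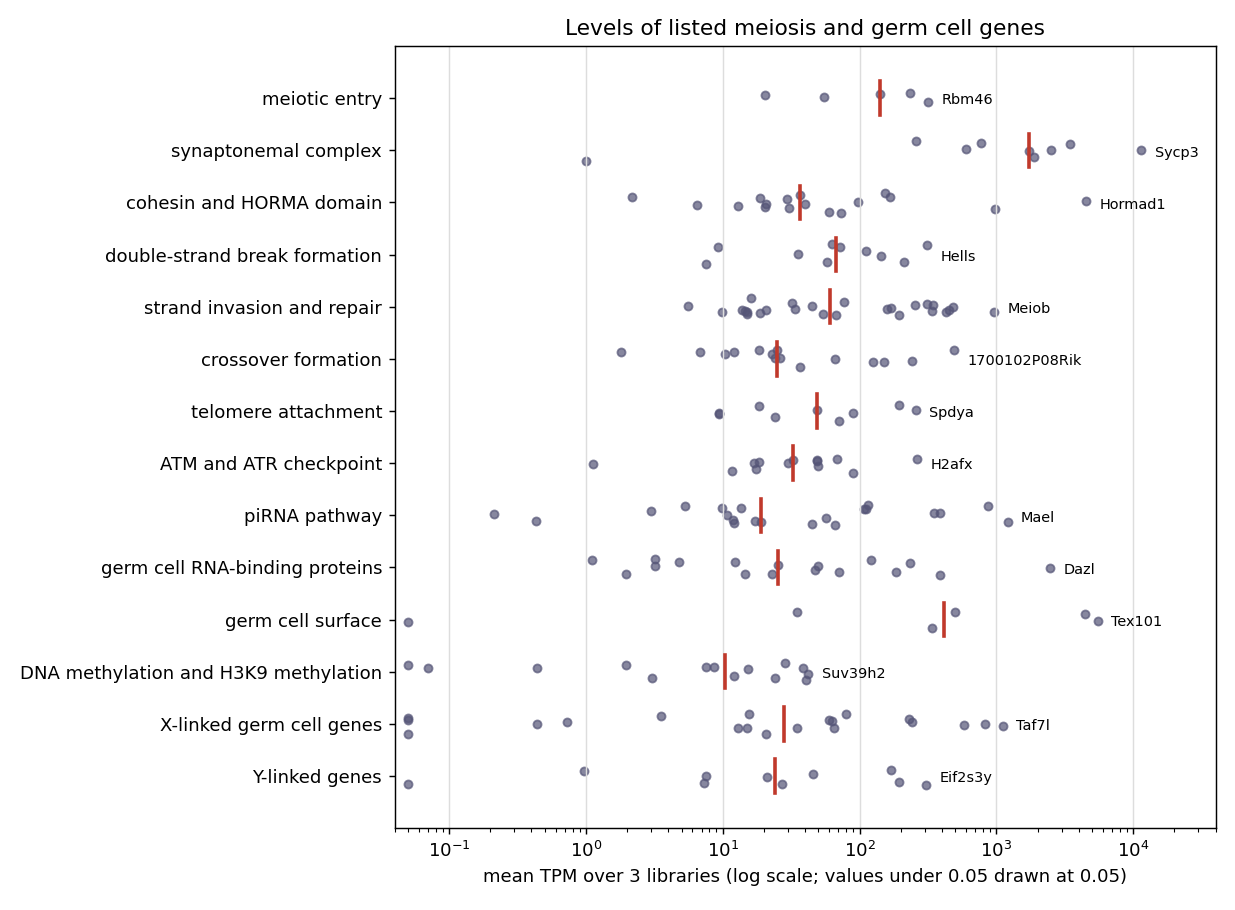
Mean TPM over the 3 wild type libraries (log axis) of every matched member of 14 meiosis and germ cell lists. Points are genes, the vertical bar is the list's median and the name marks its highest member. The synaptonemal complex median, 1719 TPM, is the highest of the 14 lists and the DNA and H3K9 methylation median, 10.3 TPM, the lowest.

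Germ cell surface and RNA-binding genes were carried by a few members. Tex101 was at 5518 ± 746 TPM (SD, n = 3) and Ly6k at 4475 ± 628 TPM, followed by the protease relative Prss50 at 496 ± 121 TPM and the dipeptidase gene Dpep3 at 340 ± 22.3 TPM. The GPI-anchored Prnd had no count in any library, but 97.2% of its exon length overlaps another gene on the same strand, so its level is uncertain. Ly6k overlaps the antisense gene Gm17189 over 47.7% of its exons, and that gene had 1.62 CPM. Dazl made up 71.3% of the counts of the germ cell RNA-binding list. Its 2482 ± 60.5 TPM compared with 386 ± 30.1 TPM for the helicase gene Ddx4 and 122 ± 8.55 TPM for Boll, its family member.

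The piRNA pathway, which silences transposons with small RNAs, was present with its PIWI genes below several of its other members. Mael and Fkbp6 led at 1207 ± 32.1 and 869 ± 51.5 TPM (SD, n = 3), and Asz1 was at 352 ± 16.4 TPM. Of the PIWI proteins themselves, Piwil2 was at 106, 135 and 142 CPM and Piwil1, the pachytene form, at 6.6, 4.49 and 5.59 CPM. Piwil4, the fetal nuclear form, was at 1.33, 0 and 0.140 CPM. Tdrd6 had a mean of 1.29 CPM. The de novo DNA methylation cofactor Dnmt3l was at 0, 0 and 1.68 CPM and Dnmt1, the maintenance enzyme, at 48.1, 47.7 and 49.3 CPM. None of the 14 DNA and H3K9 methylation genes reached 92.3 TPM.

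Several germ cell, meiotic or sex-linked copies exceeded the relatives used elsewhere in the body. In TPM, 24 pairs of related genes were compared, with 1 gene of each pair taken as the copy. The copy was higher than its relative in every library in 13 pairs and lower in every library in 10. Among the 13 is Hsp90aa1 over Hsp90ab1, in which neither gene is a germ cell, meiotic or sex-linked copy. Another of the 13, Rpl10l over Rpl10 (1.66), turned to 0.752 with the longest transcript as length and 0.827 in CPM. Slc25a31, the germ cell carrier of adenine nucleotides, exceeded Slc25a4 by 119, 69.0 and 57.1 times in replicates 1, 2 and 3. Pdha2, a retrocopy subunit of pyruvate dehydrogenase, exceeded X-linked Pdha1 by 34.8, 19.8 and 20.4 times. Ldhc, the germ cell lactate dehydrogenase, exceeded Ldha by 19.2, 61.8 and 23.9 times, and by 21.6 without replicate 2 or 22.1 with the longest transcript as length. Pdha2 and Ldhc are also among the pachytene markers used below. Rpl39l exceeded Rpl39 by 8.32 ± 0.307 times, or 3.66 with the longest transcript, and Hsp90aa1 exceeded Hsp90ab1 by 11.2 ± 1.54 times (SD, n = 3). Ptbp2, the splicing regulator of neurons and germ cells, exceeded Ptbp1 by 10.7 ± 1.7 times, or 16.3 with the longest transcript. Of their sequence, Ldha shares 34.2%, Pdha1 20.8%, Ptbp1 34.7% and Rpl39 23.7% with other genes. Their copies share less: Rpl39l 2.19%, Ptbp2 0.398%, and Ldhc and Pdha2 0%. Slc25a31 and Slc25a4 both share 0%, while Hsp90aa1 shares 62.9% and Hsp90ab1 16.6%. The part of shared reads in these ratios was not tested.

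Several other copies were below their relatives or level with them. Pgk2 was at 0.140, 0 and 1.26 CPM against 39.5, 34.8 and 22.2 CPM for X-linked Pgk1. Ccna1, the cyclin of late prophase, was at 0, 0 and 0.909 CPM against 114, 127 and 106 CPM for Ccna2. Gapdhs was at 0.351, 0.195 and 0.420 CPM against 54.3, 52.7 and 33.5 CPM for Gapdh. Cyct and Cycs, the germ cell and somatic cytochrome c genes, were at 462 ± 72.8 and 468 ± 39.5 TPM and overlapped. Hspa2 reached 0.438, 0.438 and 0.682 of Hspa8 in TPM. Ybx2, a repressor of stored mRNAs, reached 0.201 ± 0.0178 of Ybx1.

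**Figure D4:**
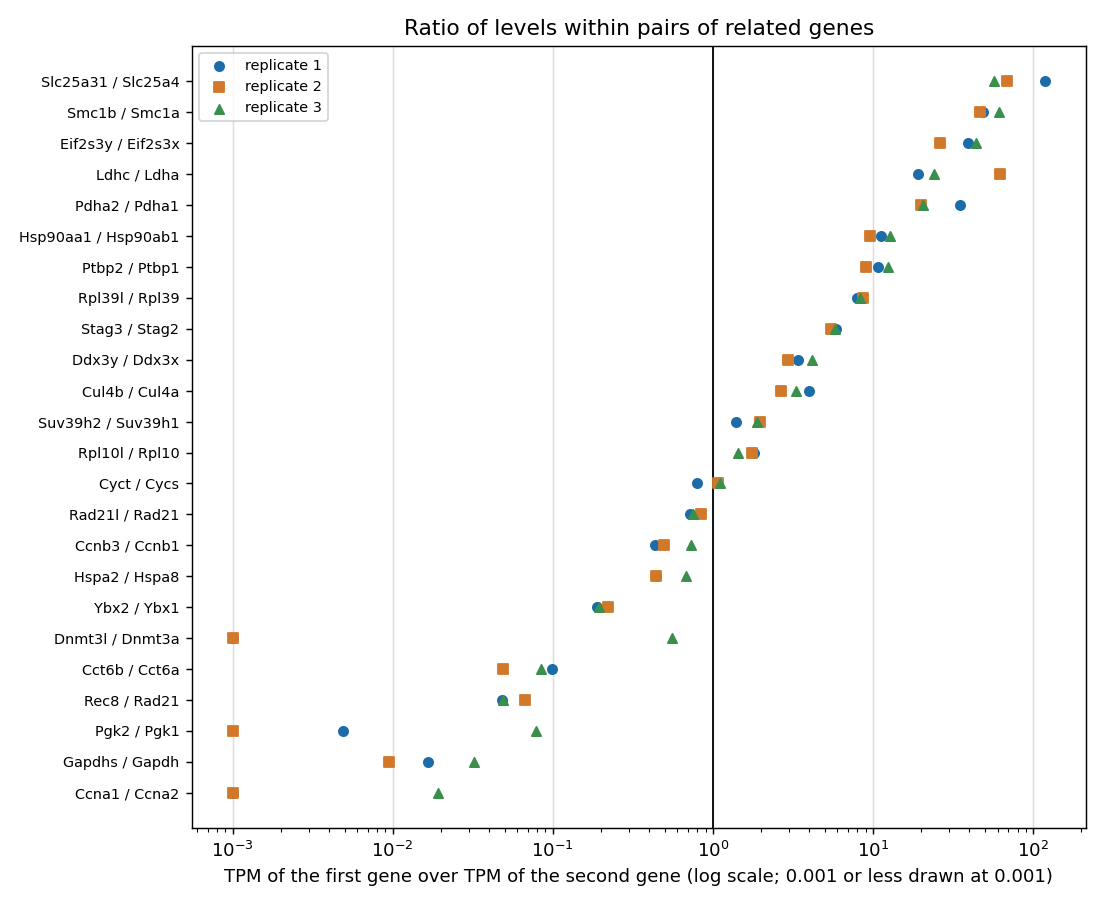
TPM ratio within 24 pairs of related genes (log axis), the first gene over the second as written at the left, with 1 symbol for each wild type library and a line at equal levels. Slc25a31 over Slc25a4 is the highest ratio (mean 81.6) and Cyct over Cycs crosses the line. Ratios of 0.001 or less are drawn at 0.001, where replicates 1 and 2 coincide for Dnmt3l and Ccna1.

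Glycolytic genes were low. The 27 genes together took 0.0438, 0.0425 and 0.0365% of counts. Ldhc was the highest at 90.2 ± 11.4 TPM (SD, n = 3), ahead of Ldhb at 79 ± 10.1 TPM, Pgk1 at 33.7 ± 9.41 TPM and Gapdh at 26.6 ± 6.67 TPM. Aldoart1 had no count. None of the 27 reached 92.3 TPM, while 75 of 83 nuclear respiratory chain genes did. Several glycolytic genes share sequence with processed pseudogenes, 68.3% of Pgk1 and 31.8% of Gapdh, so their counts depend on how shared reads were treated. The 16 members with at most 10% shared sequence had a median of 0.564 TPM.

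Genes of the cell division cycle and of DNA replication were at intermediate levels. Ccnb2 and Ccnb1, cyclins of the division phase, were at 701 ± 107 and 258 ± 33.6 TPM (SD, n = 3), Cdk1 at 146 ± 18.7 TPM and the meiotic cyclin gene Ccnb3 at 140 ± 19.4 TPM. Gmnn, the inhibitor of replication licensing, was at 549 ± 44.3 TPM and Pcna, the polymerase clamp, at 465 ± 24.6 TPM. Mcm5 and Mcm6, helicase subunits, were at 54.3 ± 7.39 and 53.3 ± 4.4 TPM and overlapped. Histone counts came chiefly from replacement variants. H3f3b was 62.6% of the list, H2afz was at 1488, 1467 and 1737 CPM, and the 65 cluster histone genes, whose mRNAs mostly lack a poly(A) tail, summed to 380, 433 and 417 CPM.

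ER genes were abundant beside the meiosis genes. Hspa5 was at 1113 ± 93.4 TPM (SD, n = 3), and Manf, Creld2 and Pdia6, folding factors of the ER lumen, were at 578 ± 62.9, 566 ± 12.6 and 409 ± 13.2 TPM. In the list for ER targeting, Srp14, a subunit of the signal recognition particle, was at 1770 ± 111 TPM, Ssr2 at 1007 ± 156 TPM, Spcs1 at 795 ± 94.4 TPM and the translocon gene Sec61b at 634 ± 28.7 TPM. Srp68, the gene deleted in the other arm of the series, was at 23.6, 32.8 and 24.1 CPM, or 23.1 ± 4.59 TPM. It was thus far lower than Srp14 in every wild type library.

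The median level of X-linked genes was slightly above that of autosomal genes in each library. The median X-linked protein-coding gene of at least 1 TPM had 14.0, 14.4 and 13.9 TPM in replicates 1, 2 and 3, beside 12.3, 13.2 and 11.8 TPM for autosomal genes. The ratio was 1.14, 1.09 and 1.18 (473 X-linked and 9728 autosomal genes), and it was 1.03 with the longest transcript as length and 1.37 without a minimum level. Single autosomes had medians from 9.40 TPM (chromosome 7) to 15.8 TPM (chromosome 12), a range that includes the X. Among listed X-linked germ cell genes, Taf7l, a testis TFIID subunit, led at 1111 ± 72 TPM (SD, n = 3), Rhox13 was at 828 ± 161 TPM and Nxf2, an mRNA export factor, at 580 ± 98.9 TPM. Slx, Akap4 and Tex13a, of which Akap4 belongs to the sperm tail, had no count.

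Y-linked transcripts took 0.146, 0.127 and 0.153% of counts. Eif2s3y, a translation initiation subunit needed for spermatogonia, was at 549, 482 and 604 CPM, and exceeded its X-linked partner Eif2s3x by 39.4, 26.3 and 43.7 times in TPM. Ddx3y exceeded Ddx3x by 3.51 ± 0.606 times (SD, n = 3). Of their sequence, Eif2s3x shares 37.2% and Ddx3x 7.42% with other genes, against 0.422% for Eif2s3y and 1.44% for Ddx3y. The part of shared reads in these ratios was not tested. Zfy2 and Zfy1, zinc finger genes of meiotic checkpoints, were at 195 ± 19.5 and 169 ± 19.8 TPM and overlapped. Sry had no count.

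Markers of other testis cells were low except for those of differentiating spermatogonia, pachytene spermatocytes and, at a lower level, Sertoli cells. Undifferentiated spermatogonia markers summed to 18.1, 16.7 and 8.25 CPM with Nanos2, of which 49.0% overlaps a gene on the opposite strand, at 0, and differentiating spermatogonia markers to 626, 770 and 741 CPM, mostly Rhox13 and Crabp1, while Kit was at 26.03, 36.6 and 35.6 CPM. Pachytene markers summed to 548, 516 and 643 CPM, mostly Hspa2 and Pdha2. Of these 12 genes 7 reached 1 CPM in every library, while Pgk2 and Ccna1 had means of 0.466 and 0.303 CPM. Hspa2, Pdha2 and Ldhc also stand in the pairs above. Whether their counts came from the labelled cells or from pachytene cells cannot be told apart. Round spermatid markers summed to 25.9, 24.2 and 34.9 CPM, 82.0% of it Spaca1, and 6 of 13 including the protamine genes Prm1 and Prm2 were at 0. Sertoli markers summed to 128, 119 and 116 CPM, mostly Aard and Clu, while Dhh, of which 25.2% overlaps a gene on the opposite strand, was at 0 and Amh at 0.351, 0.390 and 0 CPM. In sorted bulk cells a low marker sum can mean few such cells or little RNA per cell, and these cannot be told apart.

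Leydig, myoid, macrophage and endothelial markers each summed to between 0.631 and 7.41 CPM in every library. In these lists 6 of 8 Leydig genes, among them Cyp11a1 and Cyp17a1, 5 of 8 macrophage genes, among them Csf1r and Adgre1, and 2 of 6 myoid genes were at 0. Of all 49584 listed genes, 22468 were counted in at least 1 library. Members at 0 are thus not particular to these lists or to the round spermatid list. Erythroid markers summed to 3.02, 5.27 and 146 CPM, so replicate 3 stood apart, with Hba-a1 at 1.96, 1.76 and 84.1 CPM and Alas2 at 0. Without replicate 3 the erythroid mean was 4.14 CPM instead of 51.4 CPM. Stromal markers summed to 8.21, 28.3 and 6.57 CPM, highest in replicate 2, with Dcn at 5.12, 13.0 and 0.979 CPM and Lum at 0. Without replicate 2 the stromal mean was 7.39 CPM instead of 14.4 CPM, and the Leydig mean 0.980 CPM instead of 3.12 CPM. The part of these markers in other values was not tested.

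**Figure D5:**
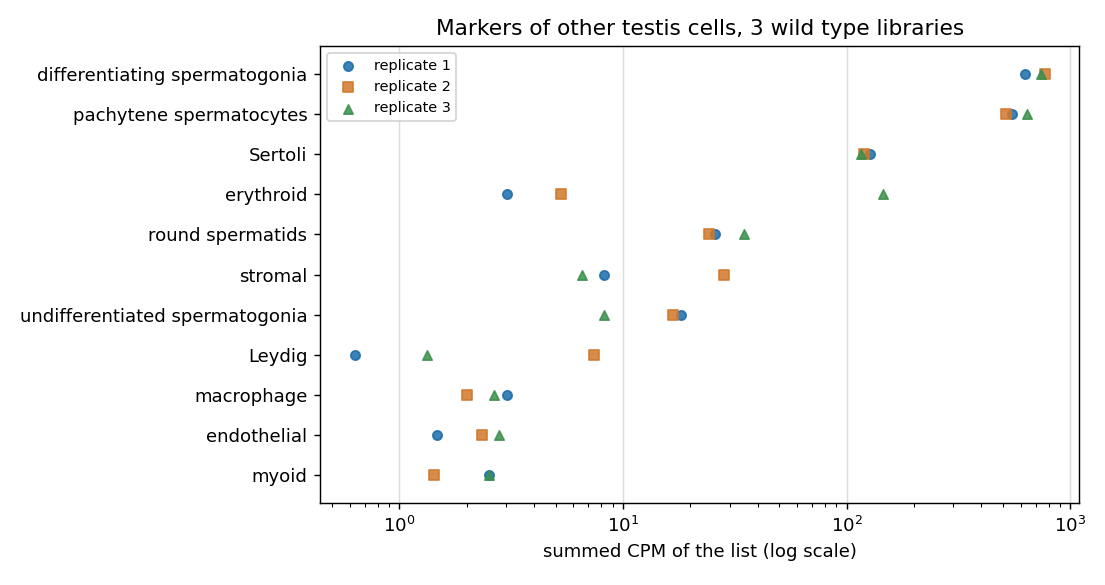
Summed CPM (log axis) of 11 lists of markers for other testis cells, with 1 symbol for each wild type library. Differentiating spermatogonia and pachytene lists lie between 516 and 770 CPM, the Leydig, myoid, macrophage and endothelial lists below 8, and the erythroid list is apart in replicate 3.

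The spread between libraries was small for abundant genes and grew as levels fell. The CV had a median of 7.45% among genes of at least 1000 CPM, 8.24% between 100 and 1000 CPM, 15.7% between 10 and 100 CPM and 40.2% between 1 and 10 CPM. Counting error alone would give 0.690, 1.83, 4.69 and 15.02% in these classes. Over 8958 genes of at least 5 CPM the median CV was 14.7%, with 10% of genes at 5.02% or less and 10% at 36.7% or more. The biological coefficient of variation, the spread left after counting error in edgeR, was 0.251, and it was 0.159 from DESeq2's gene-wise estimates. Libraries correlated on log2(CPM + 1) with Pearson's r of 0.971, 0.968 and 0.968 over 12824 genes, which share libraries and are not independent replicates. Chi-square per degree of freedom between pairs was 18.3, 21.03 and 22.2, where repeat counts of 1 library would give about 1, so each library was counted as 1 sample.

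Few abundant genes stood apart in 1 library. Among 5636 protein-coding genes of at least 20 CPM, more than 2-fold above or below both other libraries were 4 genes in replicate 1, 8 in replicate 2 and 17 in replicate 3. Ehmt2, a histone methyltransferase gene, was at 12.1, 36.3 and 12.5 CPM, Vars, a tRNA synthetase gene, at 20.3, 43.3 and 14.6 CPM and Fasn, the fatty acid synthase gene, at 17.1, 36.8 and 14.5 CPM. These 3 were high in replicate 2. Fech, the last enzyme of haem synthesis, was at 74.9, 64.4 and 22.7 CPM and Tubg1, a centrosomal tubulin gene, at 39.6, 54.4 and 15.7 CPM, both low in replicate 3. Median GC content was 54.5% among the 6 genes high in replicate 2 and 55.7% among the 14 low in replicate 3, beside 46.7% over the 5636 genes. At the other end, Ube2d3, a ubiquitin-conjugating enzyme gene, was at 1101, 1102 and 1100.3 CPM, and Setd3 at 82.5, 82.6 and 82.7 CPM. A CV at or below counting error was found for 255 of the 5636 genes (4.52%), among them Ube2d3 and Setd3.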

How the data were processed

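The authors deposited raw counts of reads per gene, whole numbers with a different total in each library. Only the 3 wild type columns were used, without the 3 knockout columns. The submitters' processing notes name FastQC, Trim Galore 0.6.4, HISAT2 2.0.5 and GRCm38 or mm10. No source used here names the program that counted reads, how it treated strand or its annotation, so genes that overlap on opposite strands share an uncertainty. The reads have no molecular identifiers, and floors (3 counts) cover counting error only.

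GENCODE vM21 gave symbols and exon lengths for 49325 of 49584 gene identifiers, and the other 259 held 0.0187% of counts. CPM used library totals and TPM the union of exons (Python 3.11.15, pandas 2.3.3). The biological coefficient of variation came from edgeR 4.0.16 in R 4.3.3 (TMM, filterByExpr), with DESeq2 1.42.0 as an alternative. Shared sequence is the percentage of 31-base words of a gene's longest transcript that occur in transcripts of another gene.

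Members, gene lists and pairs were chosen with earlier results of these data known. Named genes are the 20 highest by mean CPM and by mean TPM, 5 markers, up to 4 members of each list by TPM, members without a count, both genes of each pair, and the 10 highest and 10 lowest by CV among protein-coding genes of at least 20 CPM. Some of these genes are not reported here. Other genes named were chosen after their values were seen. No groups were compared, so no p-value is given. Alternatives covered scaling, gene length, filters, overlapping genes, mitochondrial genes and each library left out.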

Additional observations from a re-analysis of the deposited data

How the results depend on the processing

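No paired analysis was possible because no groups were compared and no result comes from a test. On TPM in place of CPM, 277 genes held 50% of the total and the 100 leading genes 33.2%, and without mitochondrial genes the latter was 18.6%. The median CV was 46.9% with no filter on level, 20.1% at a mean of 1 CPM and 11.4% at a mean of 20 CPM. The biological coefficient of variation was 0.574 with no filter, 0.210 at a mean of 5 CPM and 0.159 with DESeq2 gene-wise dispersions. The ratio of X-linked to autosomal medians was 1.37 with no minimum level, 1.08 at 5 TPM and 1.03 with the longest transcript. With genes overlapping the opposite strand left out, shares became 6.23% for ribosomal proteins, 4.44% for the mitochondrial genome, 1.75% for chaperones, 1.96% for translation factors, 1.39% for the synaptonemal complex (Sycp3 among the genes left out), 1.85% for splicing factors and 1.84% for the proteasome. Without mitochondrial genes they were 4.18% for the respiratory chain, 1.85% for chaperones, 1.83% for translation factors, 1.75% for splicing factors and 1.63% for the proteasome.

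Leaving out each library in turn gave 620.5 to 652 genes for 50% of counts, 20.8 to 21.4% for the 100 leading genes and 11479 to 11612 genes at 1 CPM. The median CV was then 11.2 to 12.2%, the biological coefficient of variation 0.243 to 0.263 and the X ratio 1.13 to 1.14. With fewer libraries, 1 CPM in every library is easier to reach and the median CV tends to be lower. Those 2 ranges are therefore not comparable with the 11104 genes and 14.7% of the full set. Rpl10l exceeded Rpl10 by 1.66 times in TPM, but was at 0.752 of it by longest transcript and 0.827 in CPM, and Cyct over Cycs, 0.992 on average, ranged from 0.937 to 1.09 with 1 library left out and was 0.191 in CPM. In CPM, 13 of 24 pair ratios moved by over 1.5-fold, and with the longest transcript 6 of 24 did. The summed erythroid markers fell from 51.4 to 4.14 CPM without replicate 3, and the Leydig and stromal sums from 3.12 to 0.980 and from 14.4 to 7.39 CPM without replicate 2. TMM or DESeq2 scaling moved the mean CPM over the 3 libraries by more than its SD in none of 224 named genes. Both sets of factors average out near 1 over these libraries. The mean could therefore hardly move, and this count says little about scaling. The longest transcript moved 140 of 224 by more than their SD in TPM and 12 of 224 by over 1.5-fold. The cause was not tested.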

Other observations

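In several sets of genes for the same or closely related proteins, 1 gene held most of the transcripts. These sets were chosen after values were seen. H3f3b gave 96.7, 96.0 and 95.8% of the TPM of the histone H3.3 genes in replicates 1, 2 and 3. Ubb gave 83.8 ± 3.05% (SD, n = 3) of the ubiquitin set and Rps27a 12.8 ± 3.06%. Cox7b2, the germ cell form of a cytochrome c oxidase subunit, gave 95.8 ± 0.703% of the TPM shared with X-linked Cox7b. Slc25a31 gave 96.7 ± 0.434% of 3 adenine nucleotide carriers, with X-linked Slc25a5 at 2.02 ± 0.158%.

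Several mitochondrial protein genes share their sequence with nuclear pseudogenes. In mt-Atp6 99.5% and in mt-Co2 100% of the 31-base words occur in other annotated genes. The pseudogene Gm10925, wholly shared with mt-Atp6, was at 1754, 1455 and 883 CPM, above mt-Atp6 itself at 738, 376 and 357 CPM. mt-Co2 was at 561, 326 and 328 CPM and mt-Co3 at 499, 289 and 257 CPM, both highest in replicate 1, as was mt-Atp6. The treatment of reads that fit both copies was not tested.

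The deviation of a library from the others followed GC content in replicates 2 and 3. Across 5636 genes, which are not independent, Spearman's rho between GC content and a gene's log2 deviation was 0.0022 in replicate 1, 0.286 in replicate 2 and −0.267 in replicate 3. The 10% of genes richest in GC had a median log2 deviation of 0.17 in replicate 2 and −0.17 in replicate 3. The 6 genes more than 2-fold higher in replicate 2 had a median GC content of 54.5% and the 14 more than 2-fold lower in replicate 3 had 55.7%, beside 46.7% for all 5636.

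Some ribosomal protein genes were far below the median of their family, 638 TPM. In TPM they were at 1.79 (Rpl24), 3.03 (Rpl13a) and 14.9 (Rps4x). Rpl24 was at 0.702, 1.30 and 0.350 CPM, Rpl13a at 3.23, 2.93 and 2.03 CPM and Rps4x at 13.5, 8.91 and 8.53 CPM. Their shared sequence was 82.2, 58.2 and 78.4%, beside a median of 41.7% over the 85 genes of the family. Rpl3l, a listed relative, was also low at 4.51 TPM, with 0% shared sequence. The 30 members with over 50% shared sequence had a median of 799 TPM, and the 10 members with at most 10% had 616 TPM. The part of shared sequence in the counts of Rpl24, Rpl13a and Rps4x was not tested.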
